A study of Homo sapiens with 50 samples.

Results

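The change in transcript levels between 1.5 h and 6 h of treatment with compound 16 was measured in A549 cells kept without serine. Its members were the 6 arrays, of 50 in the series, whose titles name medium without serine, 1 uM compound 16 and either 1.5 h (3 arrays) or 6 h (3 arrays). A549 is an established human lung adenocarcinoma line. Cells grown in RPMI medium were switched to serine-free or serine-containing BME medium, supplemented with non-essential amino acids, 24 h ahead of compound 16 or its solvent DMSO, and were collected 0, 1.5, 6 or 24 h later. The series title describes a small molecule that activates PKM and a resulting need for serine. Compound 16 is known here by its number alone. Both groups compared therefore shared the line, the medium without serine and the compound, and differed in time of exposure. The DMSO groups without serine (3 arrays at each time) and the groups given compound 16 with serine (3 arrays at each time) served for comparison.

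PKM encodes pyruvate kinase, the enzyme of the last step of glycolysis. Serine is made from a glycolytic intermediate by PHGDH, PSAT1 and PSPH in turn, and is also taken up from the medium. When an amino acid is short, uncharged tRNA activates the kinase GCN2, phosphorylation of eIF2alpha lowers general translation, and the transcription factor ATF4 is translated and raises genes for amino acid synthesis, transport and tRNA charging. TRIB3, a pseudokinase, and PCK2, the mitochondrial phosphoenolpyruvate carboxykinase, are among its known targets and served as markers of the response.

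Values are log2 signals of HG-U219 arrays, and each change is a log2 difference ± SE from 1 limma fit, so that a difference of 1 is a 2-fold change. A gene was called where its Benjamini-Hochberg adjusted p was under 0.05. The 6 arrays had median signals of 5.450 to 5.493 and the 3′ probe set of ACTB exceeded its 5′ probe set, a gap that widens as RNA degrades, by 1.08 to 1.17 at 1.5 h and 1.05 to 1.34 at 6 h. The labelled cell type was checked by 10 epithelial and A549 markers, whose mean over the list was 12.87 to 12.91 at 1.5 h and 12.83 to 12.84 at 6 h, and by 12 markers of other cells. The mean of the latter was 4.87 to 5.03 at 1.5 h and 4.82 to 4.88 at 6 h, below the median of all genes (6.46 and 6.42), and CD68 was the brightest of them at 7.63 and 7.23. Of these 12, 0 were called by limma and 2 had an unadjusted p under 0.05. Array numbers in the titles run from 51 to 53 at 1.5 h and from 63 to 65 at 6 h. Whether replicate arrays stem from separate cultures is not in the labels, so p-values rest on spread between replicate arrays, whose number limits the precision. That spread was pooled over all 50 arrays in 17 groups, so most of the arrays behind it belong to other times and arms. Fitted on the 6 arrays alone, the change under the compound was called for 507 genes and not 1200. A shift between these blocks of numbers and the passage of time cannot be told apart within the compound arm. What such a shift adds equally to both arms drops out when the change in DMSO is subtracted, and that difference is given beside the results it bears on.

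Between 1.5 h and 6 h 13 of 20 targets of the amino acid response rose, while 9 of 15 early response genes of the EGR, NR4A, KLF and IER families, 13 of 18 cholesterol synthesis genes and 10 of 14 heat shock genes fell by limma's test. Of 18239 genes, 1200 were called (6.58%). Among them 537 were higher at 6 h (2.94%) and 663 lower (3.64%), with 31 of each at least 2-fold. The 3 and 3 arrays did not overlap for 4517 genes (24.8%), including 1194 of those called. In DMSO over the same interval 717 genes were called (3.93%), with 255 higher (1.40%) and 462 lower (2.53%), 1 and 13 of them at least 2-fold. The arrays did not overlap there for 3671 genes (20.1%). With both compound and serine 959 genes were called (5.26%), 310 higher (1.70%) and 649 lower (3.56%), and the arrays did not overlap for 3817 genes (20.9%). The change under the compound differed from the change in DMSO for 112 genes (0.614%), being more positive for 76 (0.417%) and more negative for 36 (0.197%). It differed from the change under the compound with serine for 420 genes (2.30%), of which 244 were more positive (1.34%) and 176 more negative (0.965%). The medians over all genes were -0.0043 under the compound without serine, 0.0013 in DMSO and 0.011 under the compound with serine.

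TRIB3 and PCK2, the markers, were higher in every 6 h array than in any 1.5 h array. TRIB3 stood at 10.48, 10.43 and 10.54 at 1.5 h and at 11.89, 12.03 and 11.85 at 6 h. The groups lay far apart, and TRIB3 rose by 1.44 ± 0.07 (2.71-fold, adjusted p = 1.41e-17). In DMSO the change was -0.08 ± 0.07 (adjusted p = 0.674), and under the compound with serine TRIB3 fell by 0.98 ± 0.07. PCK2 stood at 8.792, 8.617 and 8.647 at 1.5 h and at 10.27, 10.34 and 10.21 at 6 h, again without overlap. It rose by 1.59 ± 0.09 (3.01-fold, adjusted p = 1.01e-15). The DMSO arm also moved for PCK2, by 0.33 ± 0.09 (adjusted p = 0.0346), so that the changes differed by 1.26 ± 0.13 (adjusted p = 1.03e-07). For TRIB3 they differed by 1.52 ± 0.10 (adjusted p = 7.61e-13).

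**Figure D1:**
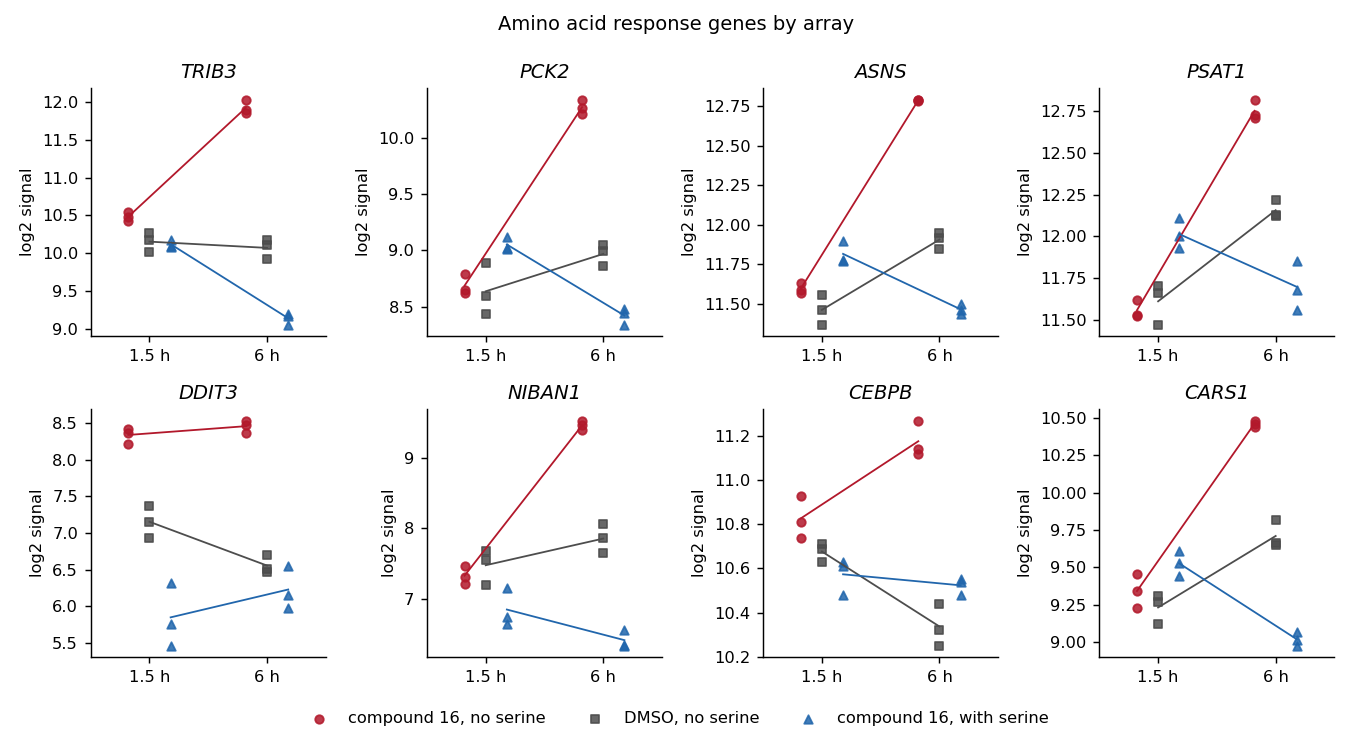
Log2 signal of each array (points) and group means (ends of the lines) at 1.5 h and 6 h for 8 genes of the amino acid response, with compound 16 without serine in red, DMSO without serine in grey and compound 16 with serine in blue; each panel has its own vertical range, which does not start at 0. TRIB3 runs from 10.43 to 10.54 up to 11.85 to 12.03 in red, while the red points of DDIT3 at 1.5 h and 6 h overlap.

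Of 20 measured targets of the amino acid response 13 rose and 0 fell, with a median change of 0.85 and a range from -0.39 to 2.13. The same list had 6 higher and 4 lower in DMSO (median 0.22) and 0 higher and 7 lower under the compound with serine (median -0.36). The change under the compound was more positive than in DMSO for 13 of the 20. NIBAN1, a stress-induced protein linked to translation control, stood at 7.211, 7.471 and 7.304 at 1.5 h and at 9.454, 9.522 and 9.392 at 6 h. Its rise of 2.13 ± 0.16 (4.37-fold, adjusted p = 1.40e-12) was the largest of the genes named here, and it exceeded the change in DMSO by 1.75 ± 0.23 (adjusted p = 1.06e-05). STC2, a secreted glycoprotein, rose by 1.67 ± 0.17, from 7.433 to 7.702 up to 9.161 to 9.323. ULBP1, a ligand of the NKG2D receptor of natural killer cells, rose from 4.390 to 4.953 up to 6.170 to 6.224 (1.63 ± 0.18). Its 1.5 h values lay below or within the range of the mean of the markers of other cells (4.87 to 5.03), so the size of its change is uncertain. CBS, which joins serine to homocysteine, rose by 1.43 ± 0.08, BCAT1, the cytosolic branched-chain aminotransferase, by 1.41 ± 0.17, VLDLR, a lipoprotein receptor, by 1.32 ± 0.11, and SESN2, a leucine sensor that restrains mTORC1, by 0.90 ± 0.12. Against DMSO these changes differed by 1.08 ± 0.24 for STC2, 1.44 ± 0.26 for ULBP1, 0.81 ± 0.11 for CBS, 1.00 ± 0.23 for BCAT1, 0.70 ± 0.16 for VLDLR and 0.96 ± 0.17 for SESN2. The difference from DMSO was no longer called for STC2 without any 1 of arrays 52, 55, 56 and 68 (0.996 to 1.018, adjusted p up to 0.0621), for BCAT1 without any 1 of arrays 52, 53, 56, 63, 65, 66 and 68 (0.91 to 1.01, adjusted p up to 0.106) and for VLDLR without any 1 of arrays 51, 55, 56, 63 and 68 (0.62 to 0.66, adjusted p up to 0.0867). Averaging all probe sets of a gene ended the calls for ULBP1 and SESN2 as well.

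The other 7 members did not pass. CHAC1, which breaks down glutathione, stood at 7.018, 7.424 and 7.378 at 1.5 h and at 7.284, 7.436 and 7.006 at 6 h, and these groups overlapped. Its level before the interval, at 0 h, was 4.824 to 5.336. The change was -0.03 ± 0.16 (adjusted p = 0.961). DDIT4, an mTORC1 inhibitor, changed by -0.01 and PPP1R15A, a phosphatase subunit that acts on eIF2alpha, by -0.39 (adjusted p = 0.0834), GDF15, a stress cytokine, by -0.17 and CTH, the last enzyme of cysteine synthesis, by 0.14. The change of DDIT4 was called more positive than in DMSO. That call was lost in 11 of 14 refits without an array or with other processing (0.365 to 0.422, adjusted p up to 0.172). VEGFA rose by 0.35 ± 0.08 under the compound, with -0.19 ± 0.08 in DMSO, and SLC7A11, the cystine carrier, rose by 0.67 ± 0.06. The difference for VEGFA (0.54 ± 0.11) was no longer called with the mean of all probe sets.

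The transcription factors of the response did not follow 1 pattern. Of 8 measured, 6 rose and 1 fell (median 0.40), against 2 and 2 in DMSO (median -0.06). DDIT3, a factor linked to cell death under prolonged stress, stood at 8.374, 8.222 and 8.426 at 1.5 h and at 8.482, 8.536 and 8.364 at 6 h. The groups overlapped, with a change of 0.12 ± 0.20 (adjusted p = 0.854). ATF4 itself stood at 13.33, 13.30 and 13.36 at 1.5 h and at 13.62, 13.49 and 13.49 at 6 h. All 3 later arrays were higher, a rise of 0.20 ± 0.05 (adjusted p = 0.00953) that did not differ from DMSO past the threshold (0.14 ± 0.07, adjusted p = 0.679). The call was lost without array 52 or 63 (0.16 to 0.19, adjusted p up to 0.108). ATF4 is regulated mainly in translation, which arrays do not measure. CEBPG, a partner of ATF4, rose by 0.80 ± 0.05, and CEBPB rose by 0.35 ± 0.06 where it fell in DMSO by 0.34 ± 0.06. The changes differed by 0.77 ± 0.07 (adjusted p = 1.76e-08) and 0.69 ± 0.09 (adjusted p = 1.06e-05). NUPR1, a small stress-induced chromatin protein, rose from 8.604 to 9.062 up to 10.44 to 10.46, by 1.61 ± 0.12, and ATF5 rose by 0.68. JDP2, a repressor of the same family, rose by 0.44, which was no longer called without any 1 of arrays 52, 53, 63 and 64 or with the mean of all probe sets (0.17 to 0.41, adjusted p up to 0.237). ATF3 went the other way. It stood at 9.041, 9.060 and 9.101 at 1.5 h and at 7.702, 7.759 and 7.698 at 6 h, and fell by 1.35 ± 0.14 (adjusted p = 2.33e-09). In DMSO it fell by 1.88 ± 0.14, and the difference of 0.54 ± 0.20 did not pass (adjusted p = 0.353). Among 7 probe sets of ATF3, 6 had the same sign.

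ASNS, BCAT1 and ATF3 each have a promoter window with the letters TGATGNAA. These are the core of the C/EBP-ATF composite element that binds ATF4 with its C/EBP partners. ASNS and BCAT1 rose, whereas ATF3 fell. The 250 bases before the first RefSeq transcript start listed for each gene (assembly GRCh38.p14) are given 5′ to 3′ on the gene's own strand. The motif is in capitals. Other starts of these genes were not searched, and which start the cells used was not tested. They lie at chr7:97872409-97872658 on the minus strand for ASNS, at chr12:24949102-24949351 on the minus strand for BCAT1 and at chr1:212565157-212565406 on the plus strand for ATF3.
ASNS: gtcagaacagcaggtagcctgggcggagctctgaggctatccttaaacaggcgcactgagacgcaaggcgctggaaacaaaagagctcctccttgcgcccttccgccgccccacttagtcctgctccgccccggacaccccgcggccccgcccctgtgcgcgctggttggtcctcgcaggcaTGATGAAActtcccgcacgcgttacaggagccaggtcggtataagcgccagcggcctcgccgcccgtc
BCAT1: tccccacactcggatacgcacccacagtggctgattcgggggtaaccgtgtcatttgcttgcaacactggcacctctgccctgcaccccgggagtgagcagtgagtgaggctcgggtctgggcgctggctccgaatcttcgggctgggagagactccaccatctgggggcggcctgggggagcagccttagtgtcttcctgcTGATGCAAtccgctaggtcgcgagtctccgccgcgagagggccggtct
ATF3: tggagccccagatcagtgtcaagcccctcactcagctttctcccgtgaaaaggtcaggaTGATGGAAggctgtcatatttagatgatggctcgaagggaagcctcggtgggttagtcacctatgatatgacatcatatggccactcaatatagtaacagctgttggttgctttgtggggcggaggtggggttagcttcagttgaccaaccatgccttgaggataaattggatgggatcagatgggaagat
The motif was searched on both strands in windows of 300 bases that end 50 bases after the start. Of 35116 such windows in the table, 1270 held it (3.62%). Among 148 of the 179 genes named by the rule that have an entry, it was found in 10. For these genes only the first listed window was read, whereas the 35116 windows were not reduced in this way. Beside the 3 shown these are MTHFD1L, CARS1, MARS1, SLC7A1 and HERPUD1, and also SGO2, which fell by 0.74, and YARS2, at -0.19 and not called. Of the 12 genes with the largest rises 10 have an entry, and 0 hold the motif in this window. A match describes the letters and not a bound site.

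ASNS, which makes asparagine, stood at 11.57, 11.59 and 11.63 at 1.5 h and at 12.79, 12.79 and 12.78 at 6 h. The later arrays lay within 0.01 of each other and above all earlier ones, a rise of 1.19 ± 0.07 (2.28-fold, adjusted p = 1.75e-16). In DMSO it rose by 0.44 ± 0.07, and the changes differed by 0.75 ± 0.09 (adjusted p = 4.22e-06).

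All 3 enzymes of serine synthesis rose. PHGDH, the entry enzyme, stood at 9.917, 9.946 and 10.10 at 1.5 h and at 10.53, 10.62 and 10.63 at 6 h. It rose by 0.61 ± 0.08 (1.52-fold, adjusted p = 8.53e-07), while the change in DMSO was -0.01 ± 0.08 (adjusted p = 0.988). PSAT1, the transaminase of the second step, stood at 11.52, 11.53 and 11.62 and then at 12.71, 12.73 and 12.82, a rise of 1.20 ± 0.08. In DMSO it rose by 0.55 ± 0.08. PSPH, the phosphatase of the last step, rose by 0.81 ± 0.06, and by 0.28 ± 0.06 in DMSO. The arrays of the 2 times did not overlap for any of the 3 enzymes, and each rise exceeded that in DMSO, by 0.61 ± 0.11 for PHGDH (adjusted p = 0.00209), 0.65 ± 0.11 for PSAT1 and 0.53 ± 0.09 for PSPH. With serine in the medium, 2 of the 3 fell under the compound over the same hours (median -0.22). PSPH has 3 probe sets on the array, of which 1 changed by -0.01.

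Of 17 measured genes of folate one-carbon and glycine metabolism 4 rose and 0 fell (median 0.08). The other 13 were not called. MTHFD2, a methylenetetrahydrofolate dehydrogenase, stood at 12.00, 12.06 and 12.00 at 1.5 h, and its lowest array at 6 h, at 12.94, lay above all of these. It rose by 0.95 ± 0.06, against 0.43 ± 0.06 in DMSO. MTHFD1L, which releases formate, rose by 0.98 ± 0.12, SHMT2, the serine hydroxymethyltransferase, by 0.42 ± 0.07 and GLDC, a subunit of the glycine cleavage system, by 0.41 ± 0.10. Of those not called, SHMT1 and MTHFD1, cytosolic enzymes, changed by -0.12 and 0.03 (adjusted p = 0.408 and 0.885), and ALDH1L2, GCSH, AMT and DLD, mitochondrial ones, by 0.09, 0.08, -0.11 and 0.05 (adjusted p = 0.861, 0.809, 0.783 and 0.732). The rises of MTHFD2 and SHMT2 exceeded those in DMSO, by 0.52 ± 0.09 and 0.42 ± 0.10. For SHMT2 that call was lost without any 1 of arrays 51, 54, 55, 64, 65, 66 and 67 (0.39 to 0.42, adjusted p up to 0.0931).

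Aminoacyl-tRNA synthetases charge tRNA with amino acids. Of 19 cytosolic ones 12 rose, 1, RARS1, fell by 0.20 and 6 did not pass (median 0.42). The call for RARS1 was lost without array 64 (-0.16, adjusted p = 0.104). Of 16 mitochondrial ones 0 passed limma's test in either direction and 3 had an unadjusted p under 0.05, with a median of 0.02 and a range from -0.24 to 0.26. In DMSO 6 cytosolic members rose (median 0.12), and under the compound with serine 1 rose and 6 fell (median -0.09). CARS1, which charges cysteine, stood at 9.341, 9.232 and 9.454 at 1.5 h and at 10.48, 10.44 and 10.46 at 6 h. It rose by 1.12 ± 0.07 (2.17-fold), and GARS1, for glycine, rose by 1.08 ± 0.06. MARS1, AARS1 and YARS1, for methionine, alanine and tyrosine, rose by 1.00, 0.95 and 0.87, and SARS1, for serine, by 0.69 ± 0.07 from 10.36 to 10.44 up to 11.05 to 11.13. QARS1, KARS1 and HARS1, for glutamine, lysine and histidine, changed by -0.05, 0.07 and 0.08, and none of these passed. The change exceeded that in DMSO for 10 of the 19, by 0.64 ± 0.09 for CARS1 (adjusted p = 4.47e-05) and 0.57 ± 0.09 for SARS1 (adjusted p = 0.000281). Of these 10, YARS1 (0.47 ± 0.11) was no longer called without any 1 of arrays 52, 53, 54, 55, 56, 63, 65 and 66 (0.39 to 0.49, adjusted p up to 0.160).

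Carriers of amino acids rose in 9 of 18 cases and fell in 0 (median 0.37, against 0.22 in DMSO). SLC7A1, the carrier of arginine and lysine, stood at 8.551, 8.686 and 8.659 at 1.5 h and at 9.894, 9.944 and 10.04 at 6 h. It rose by 1.33 ± 0.06 (2.51-fold, adjusted p = 1.88e-18). SLC1A4, which carries small neutral amino acids including serine, went from 7.820, 7.838 and 7.581 to 9.124, 9.329 and 9.157, a rise of 1.46 ± 0.09. Both also rose in DMSO, by 0.70 ± 0.06 and 0.79 ± 0.09, so that the changes differed by 0.63 ± 0.09 and 0.66 ± 0.13. When all probe sets were averaged these 2 differences were no longer called. SLC1A5 rose by 0.79, SLC3A2, the heavy chain shared by several exchangers, by 0.72, SLC38A1 by 0.59 and SLC7A5 by 0.53. SLC38A2, a carrier known to respond to amino acid supply, changed by 0.00 (adjusted p = 1.00). Among 8 measured genes that restrain mTORC1 or act against its output 3 rose and 0 fell. These were SESN2, EIF4EBP1, a target of mTORC1 that binds the cap-binding protein eIF4E, by 0.88 ± 0.06, and TSC1 by 0.26 ± 0.07. DEPTOR changed by 0.25 (adjusted p = 0.232). The call for TSC1 was lost without any 1 of arrays 52, 53, 63 and 64 (0.23 to 0.27, adjusted p up to 0.129). Among 4 probe sets of TSC1, 2 had the same sign.

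**Figure D2:**
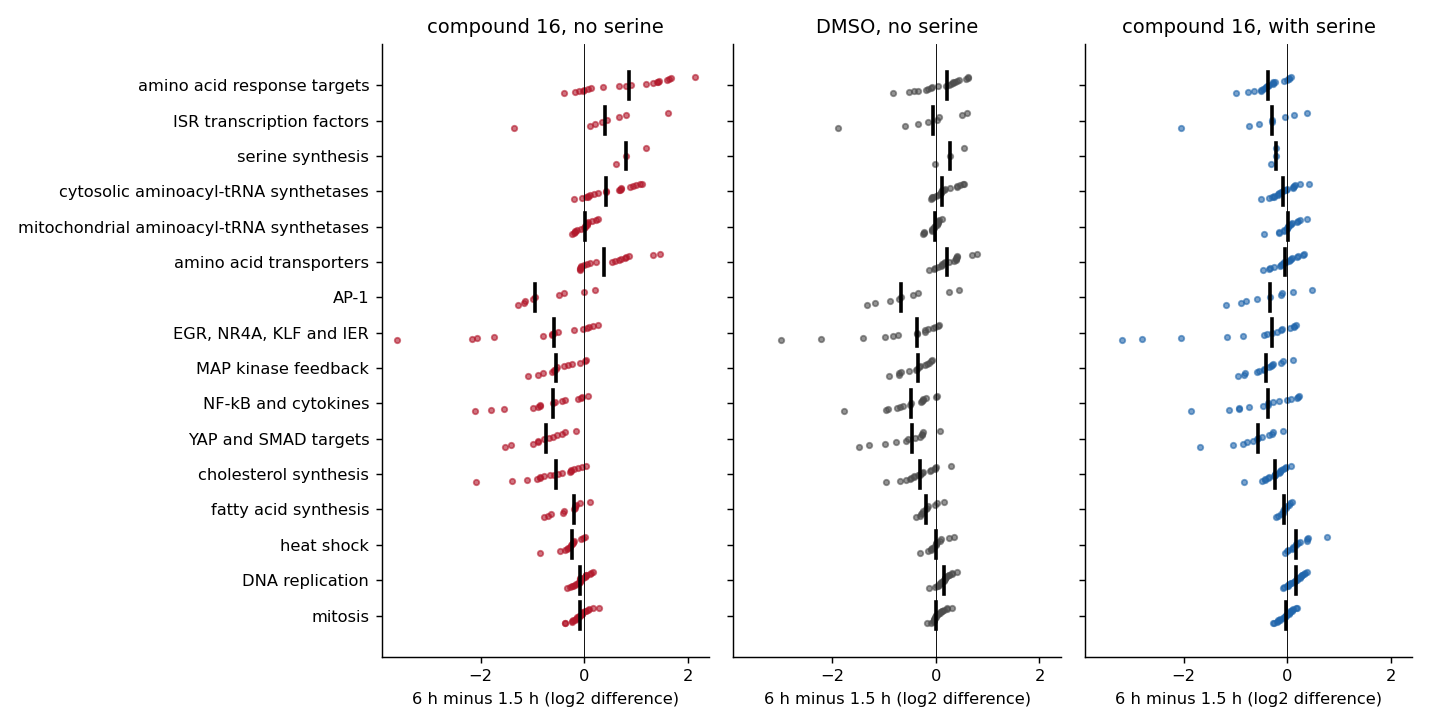
Log2 difference 6 h minus 1.5 h of each measured member (points) and the list median (bars) for 16 gene lists, with compound 16 without serine on the left, DMSO without serine in the middle and compound 16 with serine on the right. Amino acid response targets have medians of 0.85, 0.22 and -0.36, and heat shock genes -0.24, 0.00 and 0.16.

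Levels at 0 h and 24 h place the interval within a longer course and are given as a description. DDIT3 under the compound without serine had means of 6.07 ± 0.31 (SD, n = 3) at 0 h, 8.34 ± 0.11 at 1.5 h, 8.46 ± 0.09 at 6 h and 7.54 ± 0.16 at 24 h. Most of its climb thus preceded the interval. PHGDH was no higher at 1.5 h (9.99 ± 0.10) than at 0 h (10.10 ± 0.16) and reached 11.14 ± 0.03 at 24 h. NIBAN1 likewise had a mean of 7.56 at 0 h, 7.33 at 1.5 h and 9.92 at 24 h. TRIB3 and PSAT1 were highest at 6 h among the 4 times, at 11.92 ± 0.09 and 12.75 ± 0.06. NR4A1 showed the reverse course, with 9.22 ± 0.18 at 0 h, 11.72 ± 0.14 at 1.5 h, 8.11 ± 0.21 at 6 h and 7.89 ± 0.11 at 24 h. A time and its block of array numbers coincide at every step.

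**Figure D3:**
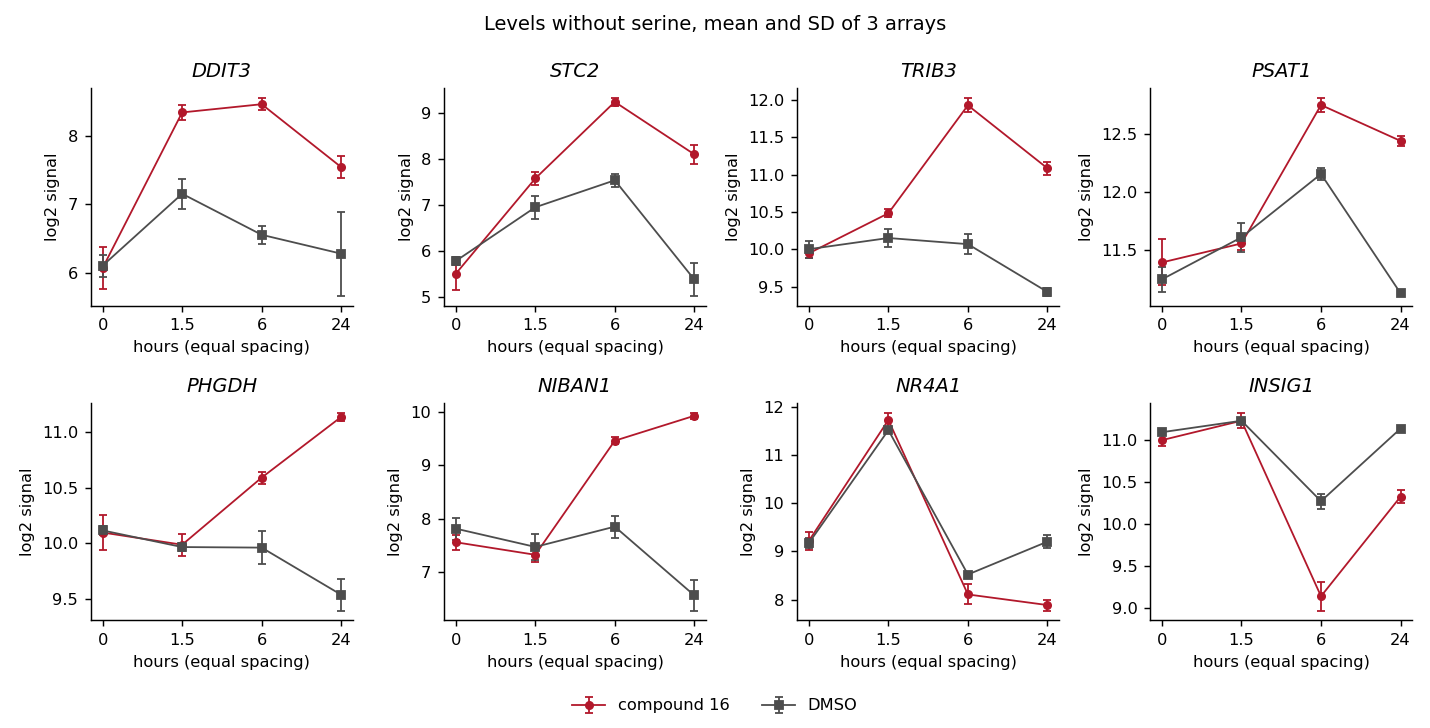
Mean log2 signal and SD of 3 arrays at 0, 1.5, 6 and 24 h without serine for 8 genes, with compound 16 in red and DMSO in grey; times are evenly spaced on the horizontal axis, and vertical ranges differ and do not start at 0. DDIT3 is near its highest by 1.5 h (8.34), PHGDH is highest at 24 h (11.14), and NR4A1 peaks at 1.5 h (11.72) in red.

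Early response genes, which rise within an hour or so of a stimulus and decay soon after, included the largest falls. NR4A1, an orphan nuclear receptor, stood at 11.83, 11.56 and 11.78 at 1.5 h and at 8.078, 8.328 and 7.917 at 6 h. It fell by 3.62 ± 0.10 on the log2 scale (12.3-fold, adjusted p = 2.98e-26). Its fall in DMSO was 7.96-fold and with serine 9.14-fold, and the change differed from that in DMSO by -0.62 ± 0.14 (adjusted p = 0.0173). That call was lost without any 1 of arrays 51, 53, 54, 63, 65 and 66 (-0.61 to -0.53, adjusted p up to 0.096). NR4A3 and NR4A2 fell by 2.17 ± 0.15 and 2.06 ± 0.12. EGR1, a zinc finger factor, stood at 7.318, 7.770 and 7.792 at 1.5 h and at 6.140, 5.512 and 5.985 at 6 h, and fell by 1.75 ± 0.21 (adjusted p = 1.22e-07). Of 15 measured genes of the EGR, NR4A, KLF and IER families 9 fell and 0 rose (median -0.59), against 7 and 0 in DMSO (median -0.35). KLF4 and IER5 changed by 0.17 and 0.27 and did not pass.

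Subunits of AP-1, the FOS and JUN family, fell in 5 of 9 cases (median -0.95). FOSL2 fell by 1.15 ± 0.09, JUNB by 1.16, MAFF by 1.27, JUN by 0.98 and FOS by 0.95. FOSB and BATF3 changed by 0.00 and 0.21 and were not called. Of 14 feedback inhibitors of MAP kinase signalling 7 fell (median -0.54). DUSP1, a phosphatase of MAP kinases, went from 9.797, 9.913 and 10.09 to 9.129, 9.014 and 8.995, a fall of 0.89 ± 0.10, and PHLDA1 and DUSP5 fell by 1.08 and 0.80. DMSO gave 5 of 9 lower for AP-1 and 1, BATF3, higher by 0.45 (median -0.67), and the compound with serine gave 4 lower and BATF3 higher by 0.48. For the feedback genes DMSO gave 6 of 14 lower (median -0.33). The change under the compound differed from that in DMSO for 0 genes of these lists by limma's test, while 2 of 9 and 2 of 14 had an unadjusted p under 0.05.

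The promoters of EGR1 and DUSP1 hold elements known from early response genes, and are shown to set them against the motif above. In EGR1 the capitals mark CArG boxes, the sites of serum response factor, and in DUSP1 the letters TGACGTCA, the cAMP response element. The 250 bases before the start lie at chr5:138465229-138465478 on the plus strand and at chr5:172771196-172771445 on the minus strand (GRCh38.p14).
EGR1: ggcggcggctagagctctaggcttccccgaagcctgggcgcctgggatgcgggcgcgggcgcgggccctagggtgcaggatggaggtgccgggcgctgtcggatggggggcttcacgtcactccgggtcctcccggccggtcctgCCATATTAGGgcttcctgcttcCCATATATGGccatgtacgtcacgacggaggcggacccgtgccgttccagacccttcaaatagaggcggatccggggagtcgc
DUSP1: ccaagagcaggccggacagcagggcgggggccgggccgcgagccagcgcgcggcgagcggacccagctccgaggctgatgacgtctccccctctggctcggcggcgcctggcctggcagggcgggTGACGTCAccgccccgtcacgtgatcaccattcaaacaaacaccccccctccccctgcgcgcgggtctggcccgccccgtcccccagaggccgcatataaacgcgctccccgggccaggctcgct
CArG boxes were found in 454 of the 35116 windows (1.29%) and TGACGTCA in 649 (1.85%), on both strands. Of the 12 genes with the largest falls 9 have an entry, and among these EGR1 was the 1 with a CArG box. Among the 148 named genes with an entry 2 hold a CArG box, EGR1 and GARS1, which rose by 1.08. TGACGTCA was found in 4 of the 148, in MAFF and DUSP1, which fell, and in ELOVL5 and UMPS, at -0.17 and -0.18 and not called.

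Chemokines and NF-kB targets fell in 10 of 15 cases and rose in 0 (median -0.60). CXCL8, a neutrophil chemokine, stood at 9.579, 9.731 and 9.817 at 1.5 h and at 7.866, 7.562 and 7.355 at 6 h, without overlap. It fell by 2.12 ± 0.20 (4.33-fold). CCL2, a monocyte chemokine, fell by 1.79 ± 0.22, CXCL1 by 1.56 ± 0.15, TNFAIP3, an inhibitor of NF-kB signalling, by 0.99 and NFKBIA by 0.88. In DMSO 7 of the 15 fell (median -0.48), and 0 of the 15 differences were called by limma, with 4 at an unadjusted p under 0.05. For CCL2 the difference was -1.10 ± 0.31 (adjusted p = 0.117). Targets of YAP and SMAD factors fell in 11 of 12 cases (median -0.73), against 8 in DMSO (median -0.47). CCN2, a matricellular protein, went from 11.11, 11.15 and 11.34 to 9.831, 9.726 and 9.795, and fell by 1.42 ± 0.11, and CCN1 fell by 1.52. In DMSO CCN2 fell by 1.48 ± 0.11, a difference of 0.07 ± 0.15 (adjusted p = 0.967).

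**Figure D4:**
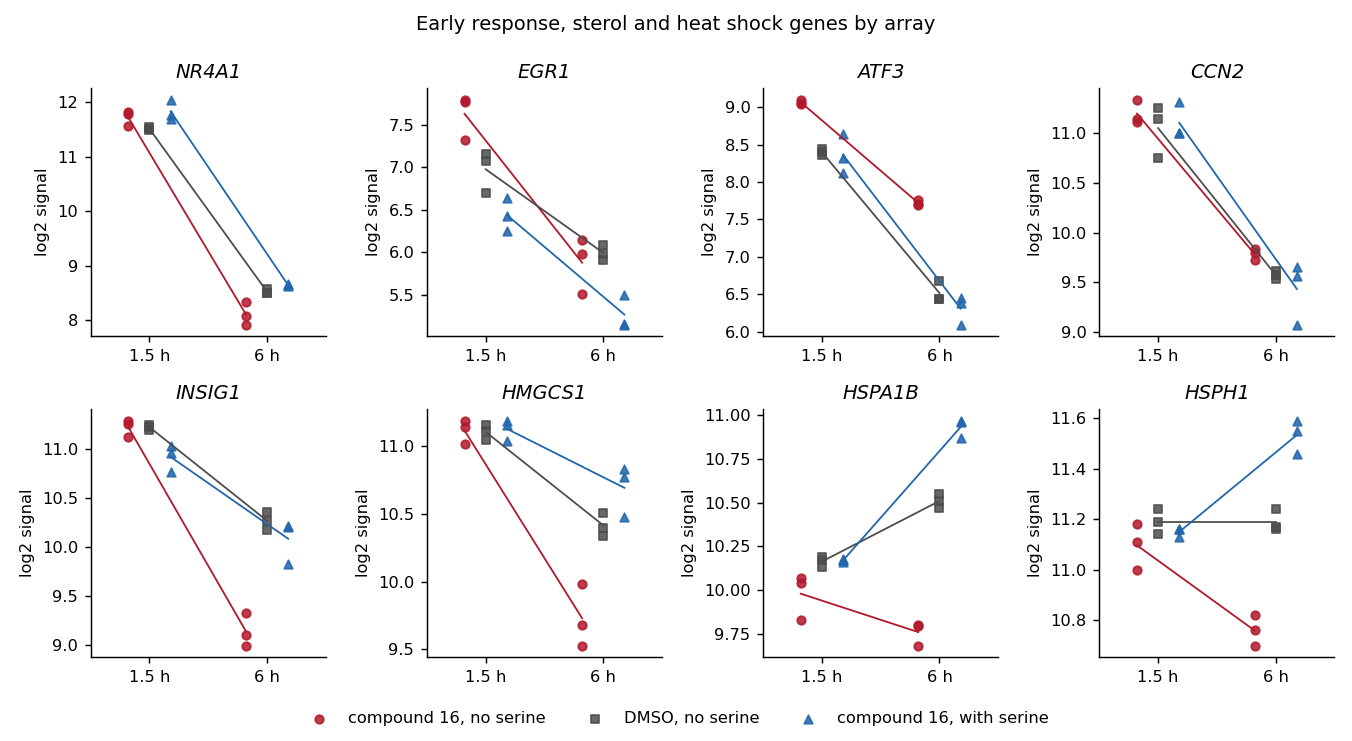
Log2 signal of each array (points) and group means (ends of the lines) at 1.5 h and 6 h for 8 early response, sterol and heat shock genes, with compound 16 without serine in red, DMSO without serine in grey and compound 16 with serine in blue; vertical ranges differ and do not start at 0. NR4A1 falls in all 3 arms, INSIG1 falls furthest in red (to between 8.997 and 9.329), and HSPH1 falls in red and rises in blue.

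Of 18 measured genes of cholesterol synthesis 13 fell, 0 rose and 5 did not pass (median -0.55), against 9 lower and 0 higher in DMSO (median -0.30) and 7 and 0 with serine (median -0.23). INSIG1, which retains the SREBP machinery in the endoplasmic reticulum and is itself an SREBP target, stood at 11.26, 11.12 and 11.29 at 1.5 h and at 9.105, 8.997 and 9.329 at 6 h. It fell by 2.08 ± 0.08 (4.23-fold, adjusted p = 7.15e-21). In DMSO it fell by 0.95 ± 0.08, and the changes differed by -1.13 ± 0.12 (adjusted p = 7.05e-08). HMGCS1, the synthase ahead of the statin target, stood at 11.19, 11.02 and 11.14 and then at 9.681, 9.527 and 9.980, and fell by 1.39 ± 0.11. IDI1, an isomerase of the mevalonate pathway, fell by 1.11 ± 0.10, and SQLE, which oxidises squalene, by 0.85 ± 0.06. The difference from DMSO was called for 3 of the 18, INSIG1, SQLE (-0.54 ± 0.09, adjusted p = 0.000208) and HMGCS1 (-0.70 ± 0.15, adjusted p = 0.0138), and for HMGCS1 it was lost without any 1 of arrays 51, 64 and 66 (-0.66 to -0.60, adjusted p up to 0.0835). CYP51A1, SC5D and FDPS, which act later in the pathway or at its branch point, changed by 0.03, -0.04 and -0.11 and were not called. MSMO1, which also acts late in the pathway, fell by 0.92 ± 0.08 (adjusted p = 8.21e-11). The fall of EBP, another late enzyme, was no longer called when any 1 of the 6 arrays was left out (-0.22 to -0.18, adjusted p up to 0.139). In fatty acid synthesis 7 of 11 fell (median -0.20), with FASN, the synthase, at -0.78 ± 0.11 and SCD, the stearoyl desaturase, at -0.20. Of the 11 differences from DMSO 0 were called by limma, with 3 at an unadjusted p under 0.05.

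Of 14 measured heat shock genes 10 fell and 0 rose under the compound without serine (median -0.24). In DMSO 2 rose and 0 fell (median 0.00), and under the compound with serine 7 rose and 0 fell (median 0.16). HSPA2, an HSP70 protein, stood at 9.689, 9.784 and 9.865 at 1.5 h and at 8.947, 8.856 and 8.951 at 6 h. It fell by 0.86 ± 0.07 (adjusted p = 7.85e-12), against -0.10 ± 0.07 in DMSO. HSP90AA1, an HSP90 chaperone, fell by 0.37 ± 0.05, DNAJB1, a J-domain partner of HSP70, by 0.47 ± 0.06 and HSPH1, a nucleotide exchange factor, by 0.34 ± 0.06. HSPA1B, the stress-inducible HSP70, stood at 9.828, 10.07 and 10.04 at 1.5 h and at 9.682, 9.795 and 9.801 at 6 h. It fell by 0.22 ± 0.06, whereas it rose by 0.35 ± 0.06 in DMSO and by 0.76 ± 0.06 with serine. Its call under the compound was lost without any 1 of arrays 52, 53 and 63 (-0.19 to -0.17, adjusted p up to 0.158). HSPA1A and HSPA1B are near-identical copies whose probes may share signal. The changes of 7 of the 14 differed from those in DMSO, of which HSPH1 (-0.34 ± 0.08) was no longer called without any 1 of 9 of the 12 arrays (-0.35 to -0.30, adjusted p up to 0.193), and those of 11 differed from those with serine. HSPD1 and HSPE1, mitochondrial chaperones, changed by 0.02 and -0.06. Of 17 genes of the response to unfolded proteins in the endoplasmic reticulum 4 rose and 1 fell (median 0.07). DNAJB9, a J-domain protein of that compartment, rose by 0.63 ± 0.08 and HSPA5, the HSP70 there, by 0.35 ± 0.08. MANF, a secreted factor of that list, fell by 0.20 ± 0.06 and rose by 0.21 ± 0.06 in DMSO, and its fall was no longer called without any 1 of arrays 51, 53, 63, 64 and 65 (-0.21 to -0.18, adjusted p up to 0.141).

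Of 19 genes of G1 and S entry, the cyclins, kinases and inhibitors ahead of replication, 2 rose, 2 fell and 15 were not called (median 0.00), beside 6.58% of all genes called. CCND3 and CDK6, a cyclin and a kinase of G1, rose by 0.31 and 0.27, and CCNE1 and CCND1, cyclins E1 and D1, fell by 0.38 and 0.27. The call for CDK6 was lost without any 1 of arrays 52, 53, 63 and 64 (0.21 to 0.29, adjusted p up to 0.207). Of 22 DNA replication genes 1, POLE2, a subunit of DNA polymerase epsilon, fell, by 0.33 ± 0.07, and 0 rose (median -0.08). In DMSO 6 rose (median 0.16), and with serine 6 rose (median 0.17). The changes under the compound were more negative than in DMSO for POLE2 (-0.48 ± 0.10, adjusted p = 0.0107) and for CDC6, a licensing factor (-0.38 ± 0.09, adjusted p = 0.0185). The call for POLE2 was lost without array 55 or 64 (-0.45 to -0.42, adjusted p up to 0.0668), and that for CDC6 without any 1 of arrays 53, 54, 55, 63 and 68 (-0.38 to -0.35, adjusted p up to 0.0817). Of 22 mitosis genes 5 fell and 1, CENPA, a centromeric histone, rose (median -0.07), with CDC20, an activator of the anaphase-promoting complex, at -0.37 ± 0.06. In DMSO 1 rose and 0 fell (median 0.01). By limma, 0 of the 22 changes differed from DMSO, with 3 at an unadjusted p under 0.05. The falls of CCNB2 and KIF20A were no longer called without any 1 of arrays 52, 63 and 65 and without array 53 or 65 (adjusted p up to 0.0787 and 0.158). The rise of CENPA (0.28 ± 0.08) was no longer called without any 1 of arrays 52, 53, 64 and 65 (0.23 to 0.29, adjusted p up to 0.153). SGO2, a protector of centromeric cohesion outside that list, fell by 0.74 ± 0.09, from 7.896, 7.994 and 7.927 to 7.220, 7.131 and 7.250, against -0.03 ± 0.09 in DMSO. Its difference was no longer called with the mean of all probe sets.

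PKM, the named target of the series, did not change past the threshold. It stood at 10.34, 10.46 and 10.29 at 1.5 h and at 10.25, 10.41 and 10.26 at 6 h, and these groups overlapped (-0.06 ± 0.07, adjusted p = 0.764). Its 5 probe sets ran from -0.06 to 0.17, and they were not assigned to splice forms. Of 21 genes of glycolysis and sugar sensing 1 rose, TXNIP, and 1 fell, PFKFB4 (by 0.76), beside 6.58% of all genes called. TXNIP, an arrestin induced by sugar phosphates, rose by 0.80 ± 0.23 (adjusted p = 0.026), and the call was lost without any 1 of arrays 52, 53, 63, 64 and 65 (0.73 to 0.83, adjusted p up to 0.113). The call for PFKFB4 was lost with the mean of all probe sets.

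Genes outside the lists were also among the largest changes. AHRR, the repressor of the aryl hydrocarbon receptor, stood at 5.736, 5.262 and 5.543 at 1.5 h and at 7.746, 7.595 and 7.271 at 6 h. It rose by 2.02 ± 0.23, and by 1.46 ± 0.23 in DMSO, with a difference that did not pass (0.57 ± 0.33, adjusted p = 0.717). The other probe set of AHRR changed by 0.09. SNTB1, a syntrophin, rose by 1.57 ± 0.14, SCG5, a secretory chaperone, by 1.55 ± 0.17 and GREM1, a BMP antagonist, by 1.54 ± 0.31. Across the probe sets of SNTB1 and GREM1 the lowest changes were 0.06 and -0.10. FGFBP1, a secreted carrier of fibroblast growth factors, went from 7.725, 7.939 and 7.904 to 6.163, 6.081 and 6.348, a fall of 1.66 ± 0.15. RGCC fell by 1.58, KCNJ2, a potassium channel, by 1.52 ± 0.21 and RGS2, a regulator of G protein signalling, by 1.28 ± 0.08. SGK1, a kinase induced by glucocorticoids, is in the list of glucocorticoid and FOXO targets and fell by 0.93 ± 0.11. The other probe set of KCNJ2 changed by 0.06. KRT19, a keratin and 1 of the 10 epithelial markers, fell by 0.59 ± 0.06, and the other 9 were not called. In these bulk cultures a smaller share of cells with a transcript and less of it per cell cannot be told apart.

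**Figure D5:**
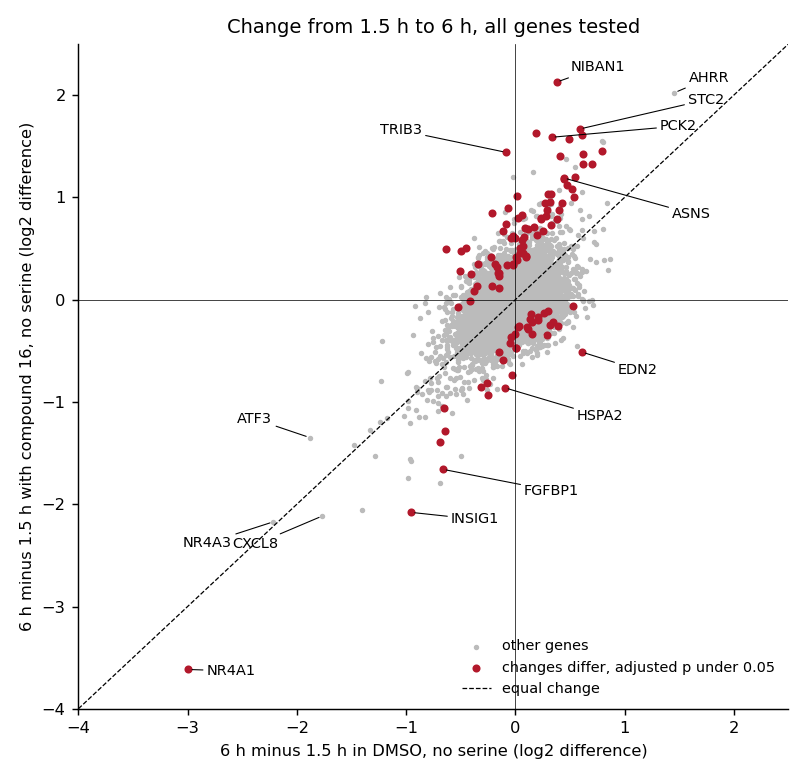
Log2 difference 6 h minus 1.5 h without serine for 18239 genes, in DMSO on the horizontal and with compound 16 on the vertical axis; the dashed line marks equal change and red points the 112 genes whose changes differed. TRIB3 lies high near the vertical axis (-0.08 and 1.44), NR4A1 at the lower left (-2.99 and -3.62) and AHRR, not red, at the upper right (1.46 and 2.02).

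The compound and DMSO arms without serine shared no arrays, but their calls are not independent. Both arms lie in the same blocks of array numbers at each time and share the pooled estimate of spread. How far a shift between blocks adds to the overlap of calls was not tested. Of the 537 genes that rose under the compound 121 also rose in DMSO (22.5%, and 47.5% of the 255), and 3 fell there. Of the 663 that fell 253 also fell in DMSO (38.2%, and 54.8% of the 462), and 3 rose there. The 537 had a median change of 0.37 under the compound and 0.17 in DMSO, and the 663 had -0.39 and -0.23. With serine and the compound, 61 of the 537 rose (11.4%) and 39 fell, while 237 of the 663 fell (35.7%) and 11 rose. The medians there were 0.06 and -0.18. All these genes were picked by their calls under the compound without serine. That choice alone tends to make medians larger in that arm than in the others, so these medians do not compare the arms.

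Named genes with opposite calls in the compound and DMSO arms were CEBPB, HSPA1B, MANF and EDN2. EDN2, an endothelin, stood at 5.823, 6.005 and 5.926 at 1.5 h and at 5.351, 5.467 and 5.399 at 6 h under the compound, and at 5.601, 5.473 and 5.663 and then 6.262, 6.293 and 6.011 in DMSO. It fell by 0.51 ± 0.16 in the former and rose by 0.61 ± 0.16 in the latter, a difference of -1.12 ± 0.22 (adjusted p = 0.00469). Its fall was no longer called when any 1 of the 6 arrays was left out (-0.56 to -0.47, adjusted p up to 0.151). BEX2, an adaptor-like protein, rose by 0.85 ± 0.12, against -0.22 ± 0.12 in DMSO, a difference of 1.07 ± 0.17 (adjusted p = 0.000281).

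Where serine was present, 0 of the 20 amino acid response targets rose with the compound between 1.5 h and 6 h and 7 fell by limma's test. TRIB3 went from 10.08, 10.10 and 10.18 to 9.173, 9.056 and 9.192 with serine, so that its changes differed by 2.42 ± 0.10 (adjusted p = 1.58e-19). For NIBAN1 they differed by 2.56 ± 0.23, for STC2 by 2.43 ± 0.24, for PCK2 by 2.22 ± 0.13 and for ASNS by 1.54 ± 0.09. Of the 20 response targets 14 had a more positive change without serine and 0 a more negative one (median 0.94), as did 12 of 19 cytosolic synthetases, with 1 more negative (median 0.57), and all 3 serine synthesis enzymes. NR4A1 and CXCL8 differed by -0.42 ± 0.14 and -0.26 ± 0.28, and neither passed (adjusted p = 0.113 and 0.778). FASN fell without serine and stood at 0.09 ± 0.11 with it, a difference of -0.87 ± 0.15 (adjusted p = 0.000191).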

How the data were processed

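Arrays of the HG-U219 type measured total RNA of A549 cells, and groups were taken from the sample titles. The deposited table holds log2 values of 49386 probe sets on 50 arrays, which the authors made with RMA per the submitters' processing notes, which also name limma; versions were not given in the sources used here. RMA sets arrays to a common distribution, so a shift shared by most genes would not be seen. Of the probe sets, 45253 pair with 1 gene symbol in the platform annotation, 1327 with several, 2713 with none, and 93 are controls. Each of 18239 genes was taken at its probe set of highest mean signal.

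From these values limma 3.58.1 (R 4.3.3) fitted the means of all 17 groups and tested 5 contrasts with eBayes and Benjamini-Hochberg adjustment over all genes: the change from 1.5 h to 6 h under the compound without serine, in DMSO, under the compound with serine, and the differences of the first from each of the others. The fit was run on simulated arrays with independent noise and no shift between blocks of numbers. That run cannot show how such a shift, or replicates from a shared culture, would affect the calls. No array pair held identical values. The median SE was 0.12 for a change and 0.17 for a difference of changes.

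Named genes are the markers and serine pathway genes always, up to 12 of the largest called changes per direction without overlap of arrays, up to 10 and 6 per direction for the differences, and per list up to 4 and 3 of smallest p. Other list members are examples picked after their values were seen. The members and the 32 lists (501 genes, 474 measured) were chosen with earlier results of these data known. Promoter sequences are RefSeq's (GRCh38.p14), matched by symbol, with the first listed window taken for each named gene. Alternatives were a filter on dim genes, quantile normalization, centring, array weights, a trended prior, the mean of all probe sets, the arrays of a comparison alone, and leaving out each array.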

Additional observations from a re-analysis of the deposited data

Results flagged for a closer look

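The results below are differences between the change of 1 arm and the change of another, each by limma's test of that difference. None was explained, and the share of a shift between arrays that is not common to both arms was not tested.

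Between compound and DMSO without serine, 112 genes differed in their change from 1.5 h to 6 h. The change was more positive under the compound for TRIB3 (1.523), PCK2 (1.256), ASNS (0.747), PHGDH (0.611), PSAT1 (0.650), PSPH (0.530), SHMT2 (0.417) and MTHFD2 (0.520), the genes followed throughout. It was also more positive for NIBAN1 (1.750), STC2 (1.080), ULBP1 (1.437), NUPR1 (1.006), SNTB1 (1.078), BEX4 (1.124), BEX2 (1.068) and BCAT1 (1.001). It was more negative for INSIG1 (-1.126), FGFBP1 (-0.995), EDN2 (-1.122), HSPA2 (-0.765), SGO2 (-0.710), HMGCS1 (-0.697), SGK1 (-0.675), OR2M5 (-0.643), RGS2 (-0.637) and RNF112 (-0.637). OR2M5 and RNF112 did not pass in the compound arm itself (adjusted p = 0.203 and 0.0588). Their differences were lost without any 1 of 9 and 11 of the 12 arrays (-0.67 to -0.46, adjusted p up to 0.221). For BEX4 this held without any 1 of arrays 52, 54, 56 and 67 (0.94 to 1.09, adjusted p up to 0.0987), for FGFBP1 without any 1 of arrays 52, 54, 64 and 66 (-0.95 to -0.92, adjusted p up to 0.0675) and for SGK1 without any 1 of arrays 53, 54 and 55 (-0.65 to -0.63, adjusted p up to 0.0616).

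Between the compound without and with serine, 420 genes differed in their change. It was more positive without serine for TRIB3 (2.420), PCK2 (2.220), ASNS (1.540), PHGDH (0.814), PSAT1 (1.513), PSPH (1.030), SHMT2 (0.529), MTHFD2 (1.430), NIBAN1 (2.560), STC2 (2.426), NUPR1 (2.159) and SNTB1 (2.276). It was more negative for INSIG1 (-1.246), FGFBP1 (-1.058), KCNJ2 (-1.101), ZNF440 (-1.120), HSPA1B (-0.983) and SERPINH1 (-0.978), the last a collagen chaperone. ZNF440 and SERPINH1 did not pass in the compound arm without serine (adjusted p = 0.730 and 0.0822). The difference was lost for KCNJ2 without any 1 of 8 of the 12 arrays (-1.14 to -0.88, adjusted p up to 0.172), for ZNF440 without any 1 of 7 (-1.11 to -0.91, adjusted p up to 0.144) and for SERPINH1 without any 1 of arrays 46, 53, 58 and 63 (-0.91 to -0.86, adjusted p up to 0.0768).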

How the results depend on the processing

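Counts of called genes were lower when each comparison was fitted on its own arrays alone, which leaves fewer arrays to estimate the spread: 507 under the compound without serine, 109 in DMSO, 57 for the difference from DMSO, 140 under the compound with serine and 206 for the difference by serine. Leaving out each array in turn gave 833 to 971 under the compound, 446 to 627 in DMSO, 83 to 98 for the difference from DMSO, 629 to 824 with serine and 274 to 459 for the difference by serine. In DMSO the count was 467, 446 and 469 without arrays 54, 55 and 66. It was 629 with serine without array 58, and for the difference by serine 274 and 278 without arrays 52 and 58. All other settings stayed within 1.5 times the reported counts, from 1180 to 1666 under the compound. PKM, which was not called, had 0.057 with the mean of all probe sets. Of 1663 recomputed values for 128 named genes under the compound 1530 kept direction and call, 132 lost the call and 1 changed sign. Of 1060 for the difference from DMSO 910 kept both and 150 lost the call. No paired analysis was run, because the titles do not say whether arrays of different groups are matched. Signals near background limit dim genes. Of 127 named genes called under the compound, 98 have several probe sets, and for 81 of these every probe set changed in the same direction.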

Other observations

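Targets of NRF2, the regulator of antioxidant genes, rose in 6 of 14 cases and fell in 0 under the compound without serine (median 0.09), against 2 in DMSO (median 0.07). GCLC, the catalytic subunit of the enzyme that starts glutathione synthesis, stood at 11.06, 11.12 and 11.15 at 1.5 h and at 11.59, 11.62 and 11.70 at 6 h. The later arrays were all higher, a rise of 0.53 ± 0.07 (limma adjusted p = 1.78e-06), and SRXN1, a sulfiredoxin, and HMOX1, a heme oxygenase, rose by 0.35 and 0.34. The rises of GCLM and TXNRD1 were no longer called without any 1 of 5 and 4 of the 6 arrays (limma adjusted p up to 0.117 and 0.252). By limma, 0 of the 14 changes differed from DMSO, with 3 at an unadjusted p under 0.05. Of 18 ribosome biogenesis genes 4 rose (median 0.10 in both arms), with RRP12 at 0.47 ± 0.08. The rises of DKC1, POLR1B and PES1 were no longer called without any 1 of 4, 5 and 4 of the 6 arrays (limma adjusted p up to 0.164, 0.21 and 0.155). CTPS1, which makes CTP, was the 1 of 12 nucleotide synthesis genes to rise, by 0.39 ± 0.08. Among all genes 2.94% were called higher at 6 h.

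Of 16 clock genes 2 fell and 1 rose (median -0.16), against 4 and 0 in DMSO (median -0.20). BHLHE40, a repressor, fell from 9.567, 9.615 and 9.709 to 8.565, 8.404 and 8.480, by 1.15 ± 0.09, and TEF fell by 0.91 ± 0.18 against 0.90 ± 0.18 in DMSO (-0.90). In the p53 list 3 of 15 rose and 1 fell (median -0.02). The rises of MDM2 and TP53I3 were each no longer called without any 1 of 4 of the 6 arrays (limma adjusted p up to 0.165 and 0.239). BAX, a pore-forming cell death protein, fell by 0.47 ± 0.09, with -0.51 ± 0.09 in DMSO. TNFRSF10B, a death receptor, stood at 11.50, 11.43 and 11.49 at 1.5 h and at 11.74, 11.78 and 11.67 at 6 h, a rise of 0.26 ± 0.05 that differed from DMSO by 0.41 ± 0.07 (limma adjusted p = 0.000712). That difference was no longer called with the mean of all probe sets. Among 19 autophagy and lysosome genes 2 rose and 1 fell (median 0.06), with MAP1LC3B, a membrane marker of autophagosomes, at 0.39 ± 0.07. Of 13 hypoxia genes 2 rose and 2 fell, of 17 interferon-stimulated genes 1 fell and of 10 glucocorticoid and FOXO targets 2 rose and 2 fell. Over all genes 6.58% were called in either direction, so such small counts say little about a list. Of 19 genes of entry into S phase 2 rose and 2 fell, with the cyclins CCNE1 at -0.38 and CCND3 at 0.31.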
